A study of Mus musculus with 6 samples.

Results

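Solute carriers are membrane proteins that move sugars, fatty acids, metal ions, nucleosides, vitamins, phosphate, organic ions and mitochondrial metabolites across cell and organelle membranes. The genes described here were chosen by name, as every gene of the deposited table whose symbol starts with Slc and a digit, without the amino acid subfamilies Slc1a, Slc3a, Slc7a, Slc36a and Slc38a and without Slc2a1, Slc16a3, Slc11a1, Slc11a2, Slc40a1 and Slc48a1. They number 170 of 11789 genes in the table, out of 197 with a solute carrier symbol. Of these, 167 are carriers of 36 subfamilies. The other 3 (Slc9a3r1, Slc9a3r2 and Slc4a1ap) encode scaffold or adaptor proteins named for a carrier. The rule by name also keeps some carriers of amino acids or of compounds derived from them, mainly in Slc6, Slc15 and Slc43, so the set is not free of amino acid transport.

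RNA-seq was made from alveolar macrophages, which patrol and clear the air spaces of the lung, taken from C57BL/6 mice after an exposure abbreviated BLM. The groups were wild-type mice (libraries BLM1, BLM2 and BLM3) and A20 conditional knockout mice (libraries A20-1, A20-3 and A20-4), and the comparison asks how the macrophages of the 2 genotypes differ after the shared exposure. A20 is the inhibitor of NF-kB signalling encoded by Tnfaip3. Neither the Cre line, the exons removed, the dose nor the time is stated in the labels. Nor do they say whether each library was 1 mouse, so the p-values cover only differences among these libraries, and those may be technical. BLM1 to BLM3 were taken as wild type because the other 3 columns are named A20 and the labels hold only these 2 groups. Values are FPKM, fragments per kilobase of transcript scaled by the mapped fragments of the library, and the read depth behind them is unknown.

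In macrophages, carriers of the plasma membrane supply glucose, fatty acids, choline and taurine, those of the endosome and lysosome pass on the products of digested cargo, and Slc25 carriers connect the mitochondrial matrix with the cytosol. Zinc carriers of the Slc39 subfamily bring zinc into the cytosol and those of the Slc30 subfamily remove it. Sodium-proton exchangers of the Slc9 subfamily set the pH of the cytosol and of endosomes. The Slc35 subfamily carries nucleotide sugars into the endoplasmic reticulum and Golgi for glycosylation.

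Library BLM3 stood apart from the others. Its Pearson correlation with the other 5 libraries across all genes tested was 0.886 to 0.925, against 0.953 to 0.982 among those 5, and over the solute carriers it was 0.856 to 0.909 against 0.924 to 0.979; these describe libraries across genes, which are not independent replicates. Of 10 neutrophil markers, 8 were in the table, with a summed FPKM of 2798 in BLM3, 134 and 137 in the other wild-type libraries and 87.7 to 116.0 in knockout libraries. All 12 markers of alveolar and airway epithelium were in the table and none was at 0 in any library, with a sum of 464 to 514 FPKM in the knockout and 106.4 to 297 in the wild-type libraries, mostly from Scgb1a1, Krt19 and Sftpc. Of the same list Krt8, Krt18 and Nkx2-1 were lower in every knockout than in every wild-type library, and Ager and Sftpd overlapped (differences of -0.01 and 0.10). Markers of monocytes and recruited macrophages (13 gene IDs) summed to 535 to 686 FPKM in the knockout and 1910 to 2143 in the wild-type libraries, and 5 of them fell. Of 16 alveolar macrophage markers, 15 were listed, at 5689 to 8087 FPKM in the knockout and 4041 to 7219 in the wild-type libraries. Most of that sum was Chil3 (2998 to 5471 FPKM), and single markers went both ways: Marco fell (-1.87, limma adjusted p = 0.0466), while Cidec (2.47, adjusted p = 0.0747) and Krt79 (2.68, adjusted p = 0.0889) had positive differences. Tnfaip3 itself had 6.80 to 12.9 FPKM in the libraries labelled knockout and 2.18 to 21.6 in wild type, so its level does not check the labels, and directions below are between libraries as labelled. In bulk RNA, fewer cells of a type and less RNA per cell cannot be told apart.

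The solute carriers together made up 0.634% to 0.689% of the summed FPKM of the knockout libraries and 0.601% to 0.659% of the wild-type libraries, ranges that overlap. Their summed level was 1786 ± 40.1 FPKM in the knockout and 1801 ± 75.5 in the wild-type libraries (SD, n = 3 each). For description, carriers were placed in role groups by subfamily number alone, so a group's name need not fit each of its members. Mitochondrial carriers of the Slc25 subfamily contributed 32.4% of the summed level, trace metal and magnesium carriers 16.4%, and peptide and residual amino acid carriers 11.1%. The most abundant single member was Slc25a5, adenine nucleotide translocase 2, which exchanges ADP for ATP across the inner mitochondrial membrane, with 164 to 235 FPKM over the 6 libraries. It was followed by the taurine carrier Slc6a6 (61.8 to 112.5 FPKM), the zinc importer Slc39a1 (61.6 to 82.4), the scaffold gene Slc9a3r1 (48.7 to 93.1), and the lysosomal peptide and histidine carrier Slc15a3 (50.01 to 70.3). None of these 5 was called, and the groups overlapped for each. Of the 170 genes, 17 had a mean of at least 20 FPKM, while 12 had a mean below 1 FPKM and were not tested.

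Of the 158 solute carriers tested, 3 were lower and 0 higher in knockout than in wild type (limma, Benjamini-Hochberg adjusted over the 10696 genes tested, adjusted p under 0.05). Among all genes tested, 0.851% fell (91 genes) and 0.252% rose (27 genes), and 1.1% passed in either direction, against 1.9% of the members; the difference of these shares was not tested. The 3 were Slc22a4, Slc27a6 and Slc44a1. At an unadjusted p under 0.05, 18 members were lower and 17 higher, which is 11.4% and 10.8% of them, against 9.3% and 11% of all genes. With BLM3 left out, 8 members fell and 1 rose, against 2.5% falling, 1.35% rising and 3.84% changing either way among all genes. With limma array weights, which gave BLM1 a weight of 6.09, BLM3 0.229 and the other libraries 0.728 to 1.26, 20 members were lower and 12 higher, or 12.7% and 7.59% of them, against 9.27% and 8.81% of all genes. These included 11 of the genes named by rule, which were called in no other setting run: Slc4a2, Slc5a3, Slc8b1, Slc15a4, Slc25a28 and Slc41a1 (higher) and Slc16a1, Slc17a9, Slc25a4, Slc29a3 and Slc37a2 (lower). Of the genes named after their values were seen, Slc39a3 and Slc52a3 (higher) and Slc39a2 and Slc41a2 (lower) also passed the threshold in a setting that left out no library. Each of the 3 calls ended when A20-1, A20-3, A20-4 or BLM1 was left out, and held without BLM2 or BLM3.

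**Figure D1:**
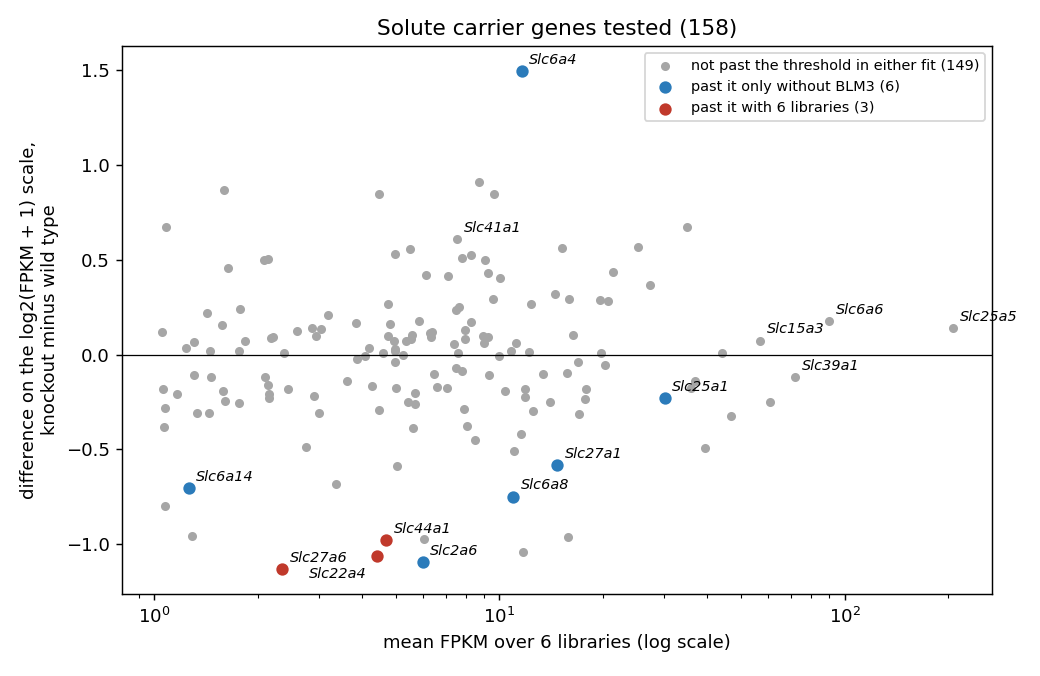
Each point is 1 of the 158 solute carrier genes tested, with its mean FPKM over the 6 libraries on a log axis and the knockout minus wild-type difference on the log2(FPKM + 1) scale. The 3 red genes passed the threshold with 6 libraries, the 6 blue genes passed it only without BLM3, and most of the rest lie within 0.5 of 0.

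The typical member differed little between the groups. The median difference on the log2(FPKM + 1) scale was 0.01, against 0.02 for all genes tested, and 83 members were positive and 75 negative. The sign of the members' median turned with quantile normalization or no filter (-0.003 each), array weights (-0.07) and without A20-1 (-0.02), A20-3 (-0.02) or BLM2 (-0.005). The median absolute difference was 0.21 for the members and 0.19 for all genes, and 80.4% of members and 85.1% of all genes lay within 0.5 of 0. The groups did not overlap for 46 members, 25 higher and 21 lower in the knockout, or 29.1% of those tested. Among all genes this share was 29% (15.9% higher and 13.1% lower), so the members lie near the background. The table lists only genes with a mean of at least 0.5001 FPKM in their higher group. Of the tested members, 10 had a mean under 1 FPKM in their lower group and thus passed the filter only through the other, among them Slc5a3, Slc6a14, Slc22a21 and Slc34a2.

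Slc22a4, which encodes the carrier OCTN1 for ergothioneine and organic cations, had the firmest fall. Its FPKM was 6.47, 6.24 and 6.33 in BLM1, BLM2 and BLM3, and 2.46, 2.34 and 2.75 in A20-1, A20-3 and A20-4. The 3 wild-type libraries lay close together and well above every knockout library, with means of 6.35 ± 0.116 and 2.52 ± 0.210 (SD, n = 3), a 2.52-fold lower mean in the knockout. The log2 difference was -1.07 ± 0.10 (SE, limma adjusted p = 0.0134), and it was as large without BLM3 (-1.07, adjusted p = 0.0147). Without A20-1, A20-3, A20-4 or BLM1 it lay between -1.11 and -1.03 with adjusted p of 0.0547 to 0.0904.

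Slc22a4 (ENSMUSG00000020334.6; GRCm38 chromosome 11, 53983123 to 54028090, minus strand) lies beside Slc22a21 and Slc22a5, 2 relatives on the same strand whose levels were not called. Slc22a5 (ENSMUSG00000018900.7; 53864542 to 53891660), the carnitine carrier OCTN2, had 6.73, 6.44 and 5.198 FPKM in BLM1 to BLM3 and 7.10, 6.34 and 6.28 in knockout libraries. These groups overlapped, and the difference on the log2 scale was 0.09 ± 0.12 (SE, limma adjusted p = 0.696), or -0.004 without BLM3. Slc22a21 (53949965 to 53980332), a testis-typical carnitine carrier, was at 0.852 to 1.48 FPKM in wild-type and 0.865 to 0.958 in the knockout, again with overlap. The log2 ratio of Slc22a4 to Slc22a5 was 0.05 ± 0.16 in wild-type and -1.11 ± 0.14 in knockout libraries (SD, n = 3), and its values did not overlap between the groups. The pair was chosen after its values were seen, so this is a description.

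No RefSeq promoter was matched by symbol for the neighbour Slc22a21 or for Slc27a6, which fell, so neither could be examined. The promoter sequences of Slc22a4, Slc22a5 and Slc44a1 are shown because Slc22a4 and Slc44a1 fell and Slc22a5 was not called. They are the 250 bases before each gene's RefSeq start on GRCm38.p6, read 5′ to 3′ on the gene's strand, and capitals mark matches on either strand to a metal response element (TGCNCNC) or an NF-kB pattern (a run of G, a gap of any bases, then a pair of C).
Slc22a4, chr11:54028105-54028354, minus strand: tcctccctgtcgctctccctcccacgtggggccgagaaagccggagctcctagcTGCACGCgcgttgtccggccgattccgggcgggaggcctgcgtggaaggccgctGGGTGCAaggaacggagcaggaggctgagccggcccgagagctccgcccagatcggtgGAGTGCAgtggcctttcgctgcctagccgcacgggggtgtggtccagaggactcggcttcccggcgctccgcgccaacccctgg
Slc22a5, chr11:53891704-53891953, minus strand: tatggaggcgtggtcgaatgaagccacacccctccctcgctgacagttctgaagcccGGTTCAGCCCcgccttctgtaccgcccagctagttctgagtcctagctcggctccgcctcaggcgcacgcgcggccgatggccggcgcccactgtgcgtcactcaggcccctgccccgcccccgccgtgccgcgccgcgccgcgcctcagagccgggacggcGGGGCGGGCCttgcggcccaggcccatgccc
Slc44a1, chr4:53440163-53440412, plus strand: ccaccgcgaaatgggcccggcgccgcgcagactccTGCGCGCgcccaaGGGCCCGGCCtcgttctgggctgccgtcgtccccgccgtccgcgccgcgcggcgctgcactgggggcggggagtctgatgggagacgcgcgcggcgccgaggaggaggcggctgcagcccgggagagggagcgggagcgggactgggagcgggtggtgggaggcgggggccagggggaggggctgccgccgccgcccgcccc

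The Slc22a4 window held 3 matches to the metal response element and 0 to the NF-kB pattern, the Slc22a5 window 2 to the NF-kB pattern, and the Slc44a1 window 1 to each. Both patterns are short and common. In windows reaching 50 bases past the start, the metal response element was found in 53.6% of 27025 mouse genes and in 65.6% of the 128 members with a RefSeq promoter, and the NF-kB pattern in 53.5% and 75% of them. The AP-1 site TGANTCA was found in 8.97% of all genes and 5.47% of members, and the palindromic CLEAR element of lysosomal genes in 0.370% of all genes and 0 of the 128 members. The patterns overlap each other and follow base composition, so a match describes letters and not a bound site.

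Uptake and activation of long-chain fatty acids is the work of the Slc27 subfamily, the fatty acid transport proteins, of which 4 members were tested, 1 fell and 0 rose. Slc27a6 had 3.99, 2.495 and 4.39 FPKM in BLM1, BLM2 and BLM3 and 1.01, 1.19 and 1.03 in A20-1, A20-3 and A20-4. BLM2 was the lowest wild-type library and still above all knockout libraries, and the wild-type mean was 3.37-fold the knockout mean. The log2 difference was -1.13 ± 0.18 (SE, limma adjusted p = 0.0491). It was not called with a pseudocount of 5 (adjusted p = 0.0632) or after rescaling to TPM (0.0517). Slc27a1, fatty acid transport protein 1, had 17.6, 17.8 and 18.1 FPKM in the wild-type and 10.5, 12.1 and 12.3 in knockout libraries. Its groups did not overlap, and the log2 difference was -0.58 ± 0.10 (SE). It was not called with 6 libraries (limma adjusted p = 0.0584) but was called when BLM3 was left out (-0.57, adjusted p = 0.0462). Slc27a4 had 5.999 to 9.77 FPKM in wild-type and 7.62 to 9.66 in knockout libraries, with overlap and a positive difference of 0.13, and Slc27a3 had 0.13, which was -0.23 without BLM3. The subfamily's median was -0.22, and -0.40 without BLM3.

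Slc44a1 (ENSMUSG00000028412.17; GRCm38 chromosome 4, 53440413 to 53622478, plus strand) encodes choline transporter-like protein 1, which supplies choline for phosphatidylcholine. Its FPKM was 7.01, 5.15 and 7.61 in BLM1, BLM2 and BLM3 and 3.22, 2.54 and 2.71 in A20-1, A20-3 and A20-4, with no overlap. The means were 6.59 ± 1.28 and 2.82 ± 0.355 (SD, n = 3), and the log2 difference of -0.98 ± 0.16 (SE) lay just inside the threshold (limma adjusted p = 0.0498). It was not called with a pseudocount of 5 (adjusted p = 0.0589), with no filter on low values (0.0511), without a trend in the variance (0.0509) or after rescaling to TPM (0.0612). An antisense gene, 1700060J05Rik, shares exon positions with Slc44a1 in GENCODE M21, and the libraries were made with a stranded kit, per the labels, but the use of strand in counting is not given, so reads of the pair may not have been separated. Its relative Slc44a2 had 8.65, 6.69 and 11.2 FPKM in wild-type and 7.26, 6.24 and 7.36 in knockout libraries, with overlap and a difference of -0.28 (limma adjusted p = 0.406).

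**Figure D2:**
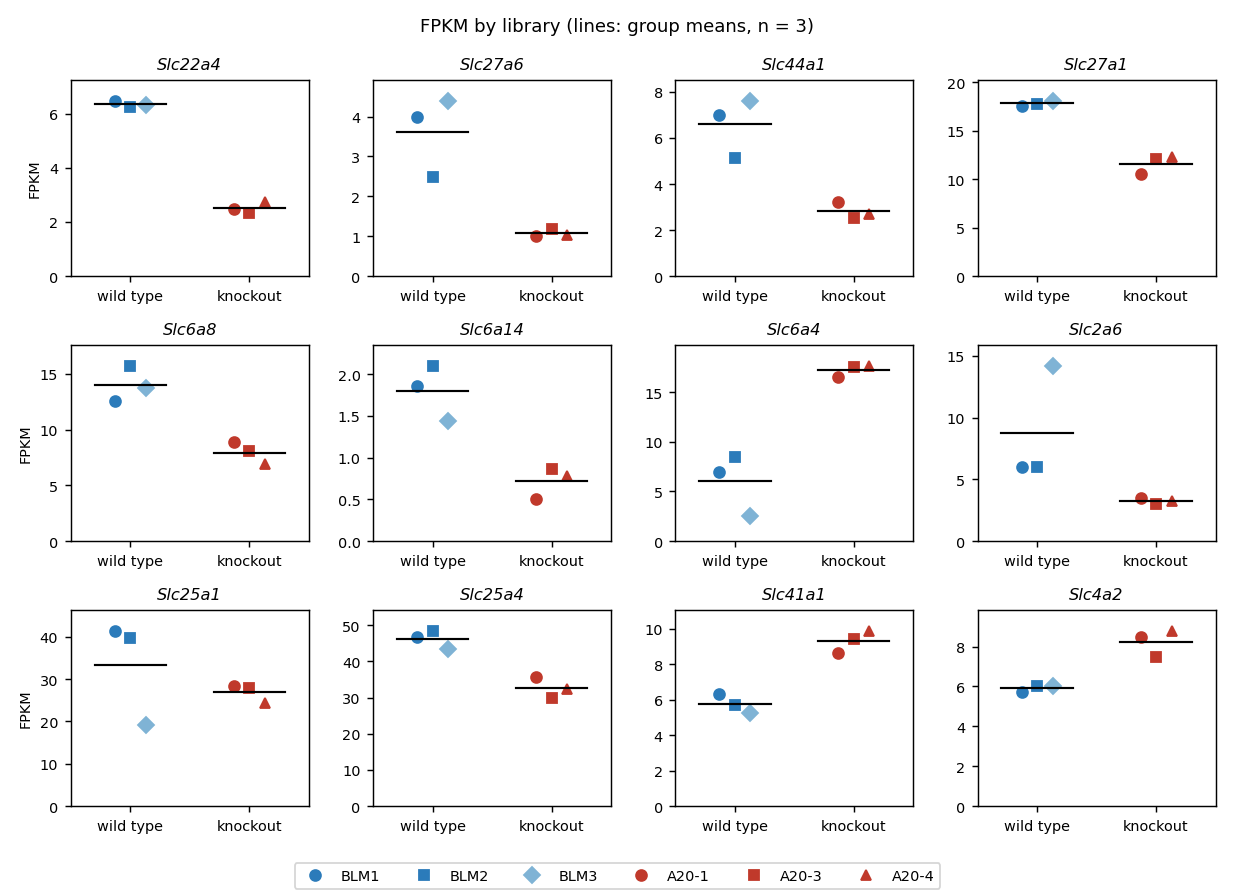
FPKM of 12 solute carrier genes in each library, in wild type (blue, with BLM3 in light blue) and knockout (red), with a line at each group mean (n = 3). The groups are apart for every gene shown except Slc25a1, in which BLM3 (19.2 FPKM) lies below the knockout libraries and BLM1 and BLM2 (41.4 and 39.7) lie above them.

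The Slc6 subfamily of sodium- and chloride-coupled carriers moved in both directions without BLM3, with 2 falls and 1 rise among 4 tested, and 0 calls with 6 libraries. The fall without BLM3 in Slc6a14 is that of a gene that passed the filter only through its wild-type level, so the count is no support for a direction. Slc6a4, the serotonin transporter, had 7.003, 8.48 and 2.53 FPKM in BLM1, BLM2 and BLM3 and 16.5, 17.5 and 17.6 in A20-1, A20-3 and A20-4. The knockout libraries were nearly equal and all above wild type, and the knockout mean was 2.87-fold higher. The log2 difference of 1.498 ± 0.35 (SE) was the largest positive one among the members and missed the threshold (limma adjusted p = 0.102), while without BLM3, the lowest library, it was 1.06 (adjusted p = 0.0147). Slc6a8, the creatine carrier, had 12.6, 15.7 and 13.8 FPKM in wild-type and 8.85, 8.06 and 6.91 in knockout libraries. These did not overlap, and the log2 difference was -0.75 ± 0.13 (SE, limma adjusted p = 0.0592; without BLM3 -0.76, adjusted p = 0.0472). Slc6a14, a broad amino acid carrier typical of epithelia, was low, at 1.86, 2.10 and 1.43 FPKM in wild-type and 0.507, 0.866 and 0.777 in knockout libraries. Its log2 difference was -0.70 (limma adjusted p = 0.0857), and -0.80 without BLM3 (adjusted p = 0.0377). The level was lower in the libraries with the higher sum of epithelial markers. Krt8, Krt18 and Nkx2-1 of that list were lower in those libraries too. The part of epithelial cells in this result was not tested. The taurine carrier Slc6a6 had 104, 90.1 and 61.8 FPKM in BLM1 to BLM3 and 112.5, 79.1 and 93.9 in knockout libraries, with a difference of 0.18 (adjusted p = 0.685) that was -0.04 without BLM3.

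Among sugar and sugar phosphate carriers, 0 of 12 were called with 6 libraries and 1 fell without BLM3, and the group's median was -0.003, with no stable sign (-0.10 with a minimum mean of 5 FPKM to 0.08 with TPM). That member was Slc2a6, the lysosomal hexose carrier GLUT6, with 5.98, 6.03 and 14.2 FPKM in BLM1, BLM2 and BLM3 and 3.49, 2.97 and 3.28 in knockout libraries. The groups did not overlap, and BLM3 lay far above BLM1 and BLM2. The log2 difference was -1.10 ± 0.30 (SE, limma adjusted p = 0.128), or -0.73 without BLM3 (adjusted p = 0.0313). Slc37a2, a sugar phosphate exchanger of the endoplasmic reticulum that is abundant in macrophages, had 23.7, 12.8 and 12.4 FPKM in wild-type and 7.74, 5.57 and 8.13 in knockout libraries. It did not overlap between the groups and was not called (-1.04, limma adjusted p = 0.114; without BLM3 -1.20, 0.0639). The myo-inositol carrier Slc5a3 went the other way, at 0.756, 0.753 and 0.876 FPKM in wild-type and 1.31, 3.29 and 2.56 in knockout libraries (0.87, limma adjusted p = 0.120). Its exons overlap those of Mrps6 on the same strand, so its level is uncertain. Slc2a3, the high-affinity glucose carrier GLUT3, had 1.40, 1.06 and 5.24 FPKM in BLM1 to BLM3 and 1.93 to 2.31 in knockout libraries, with a difference of 0.01 that was 0.51 without BLM3 (adjusted p = 0.0909) and -0.29 without BLM2. Slc50a1, the most abundant of the group, was at 13.2 to 18.7 FPKM in wild-type and 13.6 to 17.3 in knockout libraries (adjusted p = 0.759).

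Mitochondrial carriers formed the largest subfamily, with 38 members listed and 34 tested, and had the smallest median absolute difference of the role groups (0.12). All 34 differences lay within 0.5 of 0, from -0.49 to 0.44, with a median of 0.01. This median had no stable sign: it ran from -0.05 (with array weights, and without A20-3) to 0.09 (with TPM), and was -0.03 without BLM3. With 6 libraries 0 were called, and without BLM3 1 fell. That member was Slc25a1, the citrate carrier that exports citrate for fatty acid and sterol synthesis, with 41.4, 39.7 and 19.2 FPKM in BLM1, BLM2 and BLM3 and 28.3, 28.02 and 24.3 in knockout libraries. The groups overlapped only through BLM3, and the log2 difference was -0.23 ± 0.29 with 6 libraries (SE, limma adjusted p = 0.681) and -0.58 without BLM3 (adjusted p = 0.0435). Slc25a4, adenine nucleotide translocase 1, had 46.7, 48.4 and 43.6 FPKM in wild-type and 35.7, 30.005 and 32.3 in knockout libraries, with no overlap (-0.49 ± 0.11, SE, limma adjusted p = 0.0889). Its close relative Slc25a5 had 199, 227 and 164 FPKM in wild-type and 235, 203 and 207 in knockout libraries (0.14 ± 0.15, SE, adjusted p = 0.623). The 2 sequences are similar enough that reads could be shared. Slc25a28, mitoferrin 2, which carries iron into mitochondria, was at 16.99, 17.4 and 19.4 FPKM in wild-type and 21.5, 27.3 and 25.2 in knockout libraries (0.44, limma adjusted p = 0.129).

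Of 21 inorganic ion and pH carriers, 0 were called with or without BLM3, and the median difference of 0.17 was the highest of the role groups. It was 0.05 without BLM3 and 0.001 with array weights, which put sugar carriers above it (0.02). Sodium-proton exchangers of the Slc9 subfamily had a median of 0.24, with 6 of 8 positive and 4 of 8 above all wild-type libraries, and a median of 0.18 without BLM3. Slc4a2, the chloride-bicarbonate exchanger AE2, had 5.72, 6.01 and 6.01 FPKM in wild-type and 8.47, 7.47 and 8.78 in knockout libraries, with no overlap (0.42 ± 0.10, SE, limma adjusted p = 0.105). Fastk shares exon positions with it on the opposite strand. Slc8b1, the mitochondrial sodium-calcium exchanger and the most abundant gene of the group, was at 15.7 to 27.6 FPKM in wild-type and 24.8 to 35.4 in knockout libraries, with overlap (0.57, limma adjusted p = 0.237).

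Trace metal and magnesium carriers showed opposite signs within the Slc30, Slc39 and Slc41 subfamilies, with 0 of 23 called with or without BLM3 and a median of -0.10 that was 0.02 without BLM3 and -0.001 without BLM1. The copper carriers Slc31a1 and Slc31a2 both had negative differences (-0.51 and -0.32), which were -0.31 and -0.09 without BLM3. Slc41a1, a magnesium carrier of the plasma membrane, had 6.34, 5.69 and 5.28 FPKM in BLM1 to BLM3 and 8.63, 9.42 and 9.88 in knockout libraries, a 1.61-fold higher mean with no overlap. Its log2 difference of 0.61 ± 0.11 (SE) lay just outside the threshold (limma adjusted p = 0.0607; without BLM3 0.0545). Slc41a2 had 11.9, 11.3 and 6.90 FPKM in wild-type and 8.48, 6.09 and 6.29 in knockout libraries (-0.45, limma adjusted p = 0.303). Zinc importers also went both ways. Slc39a3 had 3.09 to 4.88 FPKM in wild-type and 5.40 to 6.47 in knockout libraries, while Slc39a2 had 14.9 to 24.8 and 6.63 to 13.4 (limma adjusted p = 0.142 and 0.148). The 12 tested Slc39 genes had a median of 0.005 and the 6 zinc exporters of Slc30 a median of -0.12. The exporter Slc30a1 was at 1.66 to 2.89 FPKM in wild-type and 1.41 to 2.40 in knockout libraries (adjusted p = 0.575), and Slc39a8 was at 0.461 to 0.857 FPKM in all libraries and was not tested. The copper importer Slc31a1 had 10.6, 11.5 and 17.4 FPKM in wild-type and 10.2, 8.12 and 8.09 in knockout libraries, with no overlap (-0.51, limma adjusted p = 0.216).

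**Figure D3:**
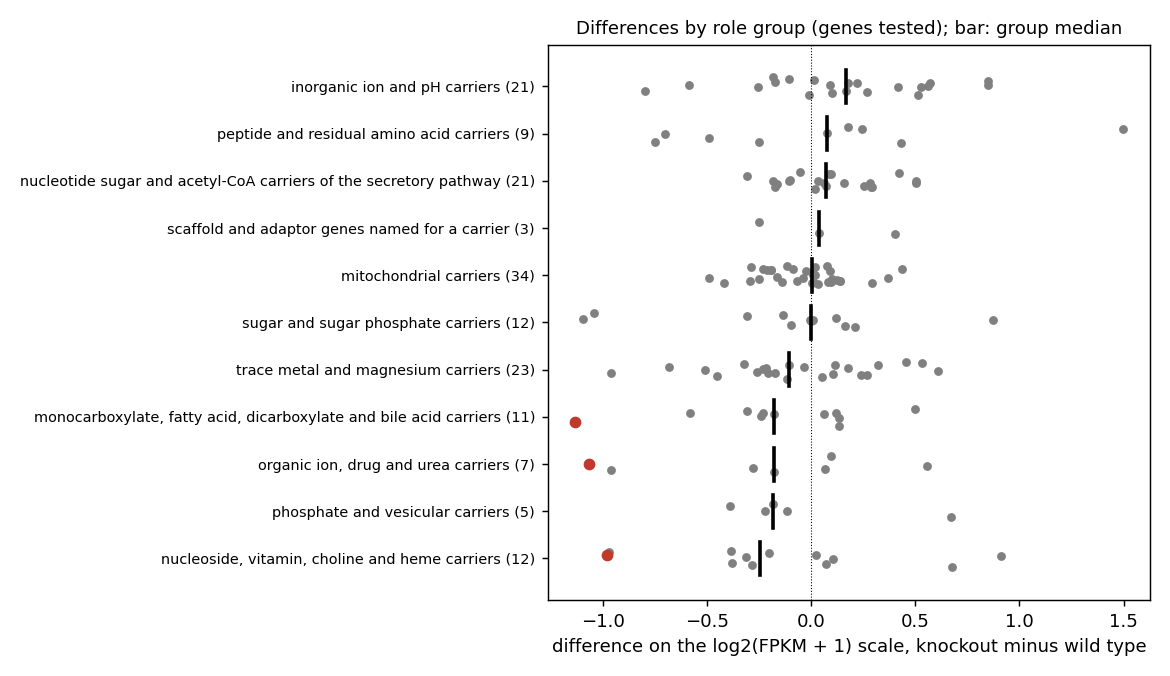
Each point is a tested gene, placed by its knockout minus wild-type difference on the log2(FPKM + 1) scale in 1 of 11 role groups, with the number tested in brackets and a bar at the group median. Medians run from -0.24 to 0.17, all 34 mitochondrial carriers lie within 0.5 of 0, and the 3 red genes are those called.

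Nucleoside, vitamin, choline and heme carriers had a median of -0.24 over 12 genes, with 1 fall (Slc44a1) and 0 rises. The median was -0.12 without BLM1 and -0.13 with a pseudocount of 5. It was the lowest of the role groups with 6 libraries, an order that changed with the setting: organic ion, drug and urea carriers, for example, were lower without BLM3 (-0.30 against -0.18), with TPM (-0.20 against -0.19) and with array weights (-0.34 against -0.22). Slc29a1, the equilibrative nucleoside carrier ENT1, was the most abundant, with 32.3, 32.6 and 16.8 FPKM in BLM1 to BLM3 and 38.3, 41.3 and 47.9 in knockout libraries (0.67, limma adjusted p = 0.216; without BLM3 0.37, 0.134). The lysosomal nucleoside carrier Slc29a3 had 17.6 to 20.01 FPKM in wild-type and 13.6 to 17.6 in knockout libraries (-0.31, adjusted p = 0.236). The riboflavin carrier Slc52a3 had 5.87, 8.47 and 3.43 FPKM in wild-type and 11.8, 12.8 and 9.86 in knockout libraries, without overlap (0.91, limma adjusted p = 0.146).

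The remaining role groups held 0 rises, and 0 falls beside Slc22a4 and Slc27a6. Nucleotide sugar and acetyl-CoA carriers had 14 of 21 positive differences and a median of 0.07, which was 0.02 without A20-3, 0.01 without BLM3 (12 of 21 positive) and -0.02 with array weights. The GDP-fucose carrier Slc35c1 was at 15.3 to 21.3 FPKM in wild-type and 22.2 to 23.6 in knockout libraries (0.28, limma adjusted p = 0.300). Among peptide carriers of the lysosome, Slc15a4 had 7.73, 8.68 and 6.89 FPKM in wild-type and 9.44, 12.02 and 11.001 in knockout libraries, without overlap (0.43, adjusted p = 0.148), and Slc15a3 had a difference of 0.07 (adjusted p = 0.798). The monocarboxylate carriers Slc16a1 and Slc16a6 had differences of -0.18 and -0.23 (adjusted p = 0.572 and 0.616). The difference of Slc16a1 ran from -0.02 without BLM1 to -0.33 without BLM3 and was -0.45 with array weights (limma adjusted p = 0.0456), and that of Slc16a6 was 0.03 without BLM3. Slc17a9, which loads nucleotides into vesicles, had 6.62, 6.08 and 6.84 FPKM in wild-type and 4.25, 5.36 and 4.66 in knockout libraries, without overlap (-0.39, adjusted p = 0.139). The phosphate carrier Slc20a1 was at 15.4 to 25.99 and 14.7 to 17.3 FPKM (-0.18, adjusted p = 0.647). Slc34a2, a phosphate carrier typical of alveolar type 2 epithelium, was at 0.234 to 1.22 FPKM in wild-type and 0.798 to 2.41 in knockout libraries (0.67, adjusted p = 0.282). The sum of epithelial markers had the same direction, while Krt8, Krt18 and Nkx2-1 of that list went the other way. The part of epithelial cells in this was not tested.

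BLM3 lay more than 1 log2 unit above the mean of BLM1 and BLM2 for 7 of 158 members and more than 1 below it for 6, against 4.85% and 2.36% of all genes tested. The members above were Slc26a11 (14.1 FPKM in BLM3 against 3.69 and 2.77), the mitochondrial iron carrier Slc25a37 (25.4 against 8.33 and 8.41), Slc2a3, the nucleoside carrier Slc28a2 (15.8 against 6.99 and 3.49), the zinc importers Slc39a4 and Slc39a9, and Slc2a6. Those below included Slc9a3r2, Slc6a4, Slc27a3, Slc9a4 and Slc25a1. This is also the library with the high sum of neutrophil markers. It had the highest sum of T and NK cell markers as well (387 FPKM, against 197 to 269 in the others). Of that list Cd3d, Cd3e, Cd3g, Gzma, Il7r, Lck and Nkg7 were highest in BLM3. Klrb1c was not, and Cd2 was lowest there (51.95 FPKM, against 68.04 to 101.3 in the others). The sums of B cell and erythroid markers in BLM3 were 95.1 and 2484 FPKM, below those of BLM1 (118) and A20-3 (3551) respectively. The part of any of these cell types in the values was not tested.

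**Figure D4:**
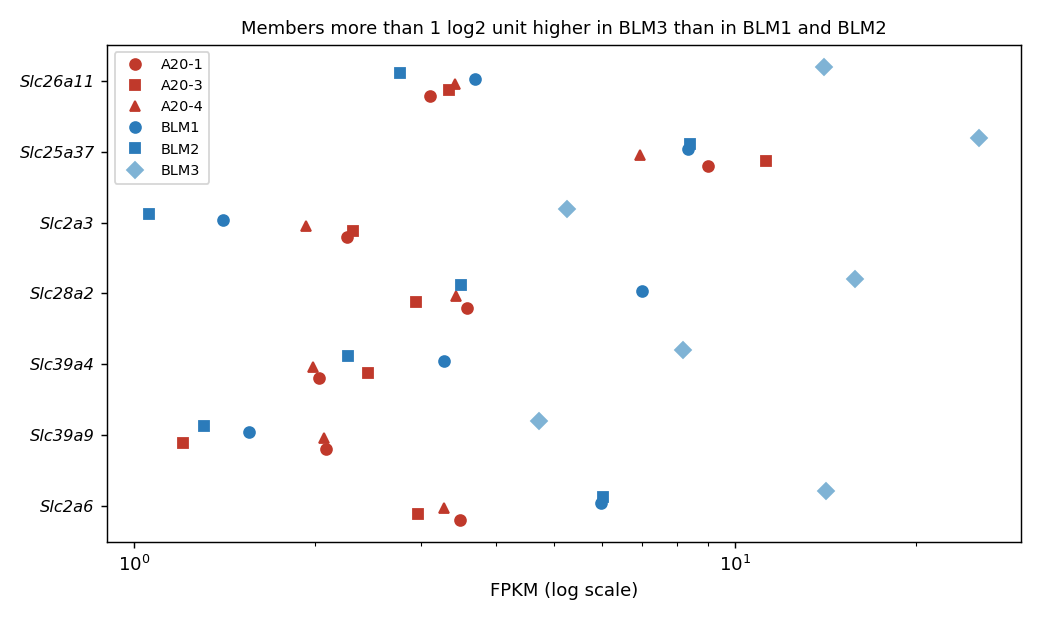
FPKM on a log axis of the 7 tested genes for which BLM3 (light blue diamonds) lay more than 1 log2 unit above the mean of BLM1 and BLM2 (dark blue), with the knockout libraries in red. For Slc26a11, BLM3 reaches 14.1 FPKM while all other libraries lie at 2.77 to 3.69.

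Other transporter families of the same libraries give the scale of these counts. Of the 21 amino acid solute carriers left out by prefix, 1 rose and 1 fell, with a median of 0.04. All 6 solute carriers left out by name had negative differences and 0 were called, with a median of -0.69. Without BLM3, 2 of them fell and the median was -0.59. Of 27 ABC transporters tested 0 were called (median 0.04), of 14 Mfsd genes 0 (median 0.04), and of 21 P-type ATPases 1 fell (median 0.24). The differences between these families were not tested.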

How the data were processed

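RNA-seq libraries of mouse alveolar macrophages, 3 of each genotype, were analysed from the deposited table of FPKM, per the file headers. The submitters' processing notes name GRCm38. The aligner, counter and strand setting were not given in the sources used here. Differences were taken on log2(FPKM + 1), with genes of a mean of at least 1 FPKM over 6 libraries, and tested with limma 3.58.1 (R 4.3.3, variance trend, two-sided, Benjamini-Hochberg over 10696 genes, threshold 0.05). On simulated data, 62 of 100 genes changed by 1 log2 unit and 87 of 100 changed by 2 were recovered among 10696 genes, with 9 false calls. The simulated noise was independent between genes and equal in spread across libraries, with no outlying library such as BLM3. These rates therefore need not hold for the real libraries. The members and lists were chosen with earlier results of these data known. Genes named by rule were those called with 6 libraries or without BLM3, and the 12 with the smallest p among the rest. They also included the most abundant of each role group, and 15 chosen for their known roles. Of these 15, Slc4a1 was absent from the deposited table and so was not analysed. Other genes were named after their values were seen. Alternatives covered the pseudocount, the filter, TPM, quantile normalization, array weights, the trend and each library left out. Promoters came from RefSeq (GRCm38.p6), matched by symbol for 128 of 170 members. Some single members are not reported here.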

Additional observations from a re-analysis of the deposited data

How the results depend on the processing

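With 6 libraries 3 members were lower and 0 higher, and 91 of all genes were lower and 27 higher. A pseudocount of 5 left 1 member lower and rescaling to TPM 1. A minimum mean of 5 FPKM gave 0, but it removed the 3 called members before testing. Their means were 4.43 (Slc22a4), 2.35 (Slc27a6) and 4.71 FPKM (Slc44a1), so this 0 says nothing about their calls. Over all genes that minimum gave 58 lower and 17 higher, and TPM gave 64 lower and 41 higher while moving the median of all genes from 0.02 to 0.10. Array weights gave 20 members lower and 12 higher, and 992 lower and 942 higher of all genes; the cause was not tested. Leaving out 1 library gave 0 to 8 members lower and 0 to 1 higher, and 0 to 267 lower and 0 to 144 higher of all genes, with the highest counts without BLM3 and 0 of all genes called without A20-3. The members' median of 0.01 was 0.0925 with TPM and -0.0659 with array weights. Among the named genes, differences near 0 turned sign. Over the libraries left out in turn, Slc2a3 ranged from -0.293 (without BLM2) to 0.508 (without BLM3), Slc15a3 from -0.0642 (without A20-4) to 0.178, Slc16a6 from -0.394 to 0.0288, Slc20a1 from -0.311 to 0.0484, Slc22a5 from -0.00367 to 0.156, Slc50a1 from -0.23 to 0.00543, Slc6a6 from -0.0355 to 0.332 and Slc9a3r1 from -0.385 to 0.00534, the last 6 turning without BLM3. Slc2a3 also turned with a pseudocount of 5 (-0.0372), and array weights turned Slc20a1 (0.0579), Slc22a5 (-0.0222) and Slc6a6 (-0.0899). Of the other values of named genes under an alternative, 426 kept their direction and side of the threshold, 23 passed it newly and 18 lost it, the last for Slc22a4, Slc27a6 and Slc44a1. No paired analysis was possible because the columns are numbered differently from the replicates in the labels. The number of reads behind a value is unknown, so counting error could not be given.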
